A study of Mus musculus with 6 samples.

Results

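The baseline transcriptome of the fetal mouse lung was described from 3 arrays of Nfibf/f lungs without Cre, out of 6 arrays in the series. The 3 were chosen by their titles alone, and the arrays labelled with Dermo1-Cre were not used. Each array held total RNA of a whole lung of 1 animal at E18.5, shortly before birth, and the labels call the 3 animals biological replicates. Both groups of the series are homozygous for a floxed Nfib, which encodes a nuclear factor I transcription factor, so these control lungs are not wild type by their label. RNA was converted to biotin-labelled cRNA and hybridized to Affymetrix mouse arrays. All values are deposited log2 signals, so a difference of 1 is 2-fold.

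At this stage the mouse lung is in its saccular phase. The distal tubules widen into thin-walled sacs, flat alveolar type I cells spread over the capillaries, and cuboidal type II cells store surfactant, the lipid and protein film that keeps the air spaces open. Lipofibroblasts, myofibroblasts and pericytes lie between the sacs, and elastic fibres and collagens are laid down around them. A whole-lung sample mixes all of these with airway epithelium, vessels, mesothelium and blood.

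A signal here belongs to a probe set, and probe sets differ in how well they bind their target. The order of signals between genes is therefore an order of brightness, not of RNA molecules. For each gene symbol the probe set brightest on average across the 3 arrays was used, which gave 18193 genes. Among the genes above background with several probe sets, 7944 in all, the brightest exceeded the next by a median of 1.49. In bulk tissue, a low signal from few cells and a low signal from little RNA per cell cannot be told apart.

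Most genes gave a signal above background. The background was read from 73 genes of odour, pheromone and bitter taste receptors, whose median was 1.79, and was set at their 95th percentile, 3.63. By this rule 13461 of 18193 genes (74%) were above background, with a median of 7.47, against 6.44 over all genes. The brightest of the receptor genes was Vmn2r29, which read 5.28, 4.55 and 5.34 on replicates 1, 2 and 3. Its mean was 5.05, so the 1396 genes at 4 to 5, all listed as above background, lay no higher than this receptor.

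**Figure D1:**
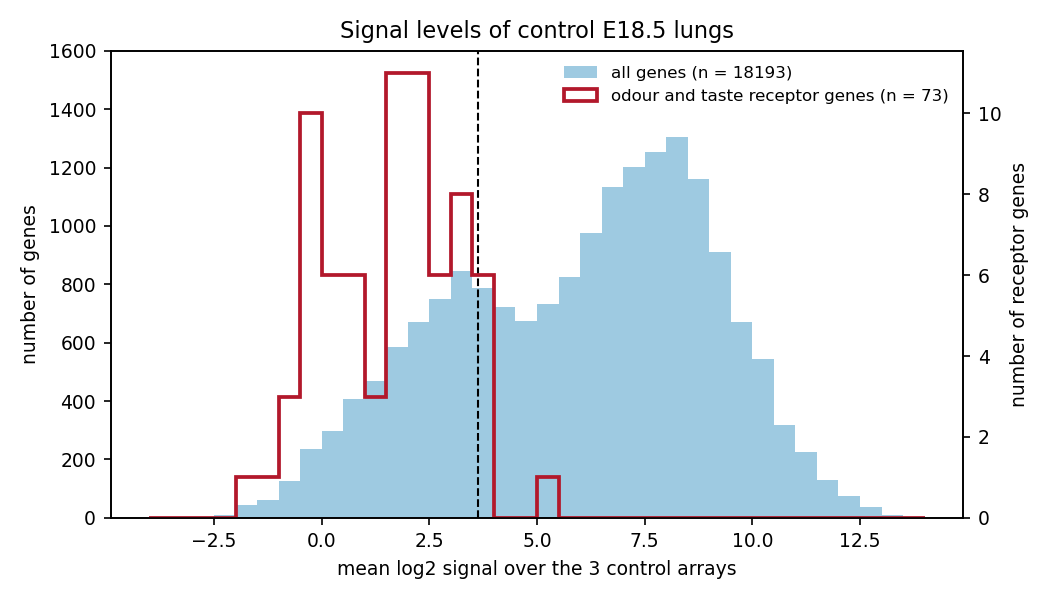
Number of genes (left axis, filled) and of odour, pheromone and taste receptor genes (right axis, outline) by mean log2 signal over the 3 control arrays, in bins of 0.5. The dashed line marks the background level of 3.63; the receptor genes have a median of 1.79, and the main peak of all genes lies well to the right of the line.

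The brightest signals came mostly from ribosomal protein genes. Of the 25 brightest genes, 20 encode ribosomal proteins, led by Rps29 (13.29 ± 0.44, SD, n = 3) and Rpl38 (13.23 ± 0.51, SD, n = 3). The other 5 were Tmsb4x and Tmsb10, which encode actin-sequestering thymosins, Tpt1, the elongation factor gene Eef1a1, and Scgb3a2, a secretoglobin of airway epithelium. Among the 18193 genes, which leave out probe sets annotated to several genes, 50 carried a ribosomal protein symbol. This class was picked after the values were seen, and 37 of the 50 ranked among the 1000 brightest. The 25 brightest genes held between 2.82% and 4.61% of the summed linear signal of all genes on an array. They spanned only 12.83 to 13.29, so their order is not resolved beyond the spread between arrays.

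Below them, at ranks 26 to 100, 10 of 75 genes (13.3%) belonged to the cell type lists described here, against 1.61% of all genes. These included Sftpc at rank 32, Mfap4 at rank 34, Scgb1a1 at rank 38, Col3a1 at rank 40, Ctsh at rank 41, Cav1 at rank 46 and Ager at rank 50. Other genes in this range were the actin genes Actb and Actg1, the intermediate filament gene Vim, Npc2 of sterol transport, and the imprinted genes Plagl1 and Mest. Cxcl15, a chemokine known for expression in mouse lung, averaged 12.29 ± 0.35 (SD, n = 3). The share of listed genes was 4% at ranks 1 to 25, 7.33% at ranks 101 to 250 and 4.8% at ranks 251 to 1000. The lists were chosen with earlier results of these data known, so these shares are no independent evidence.

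Marker lists of lung cell types differed widely in signal. The 25 cell type lists held 292 measured genes, and 251 of these were above background, where 74% of all genes were. In 13 of the 25 lists every measured member was above background, and in 16 the median lay above that of all genes. Of 6 lists for other organs, 4 had a median at or below background, while the cardiac muscle list was above it with all 20 members. The markers were chosen as known markers of each cell type, so their levels describe these lungs and are no independent evidence of cell numbers.

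**Figure D2:**
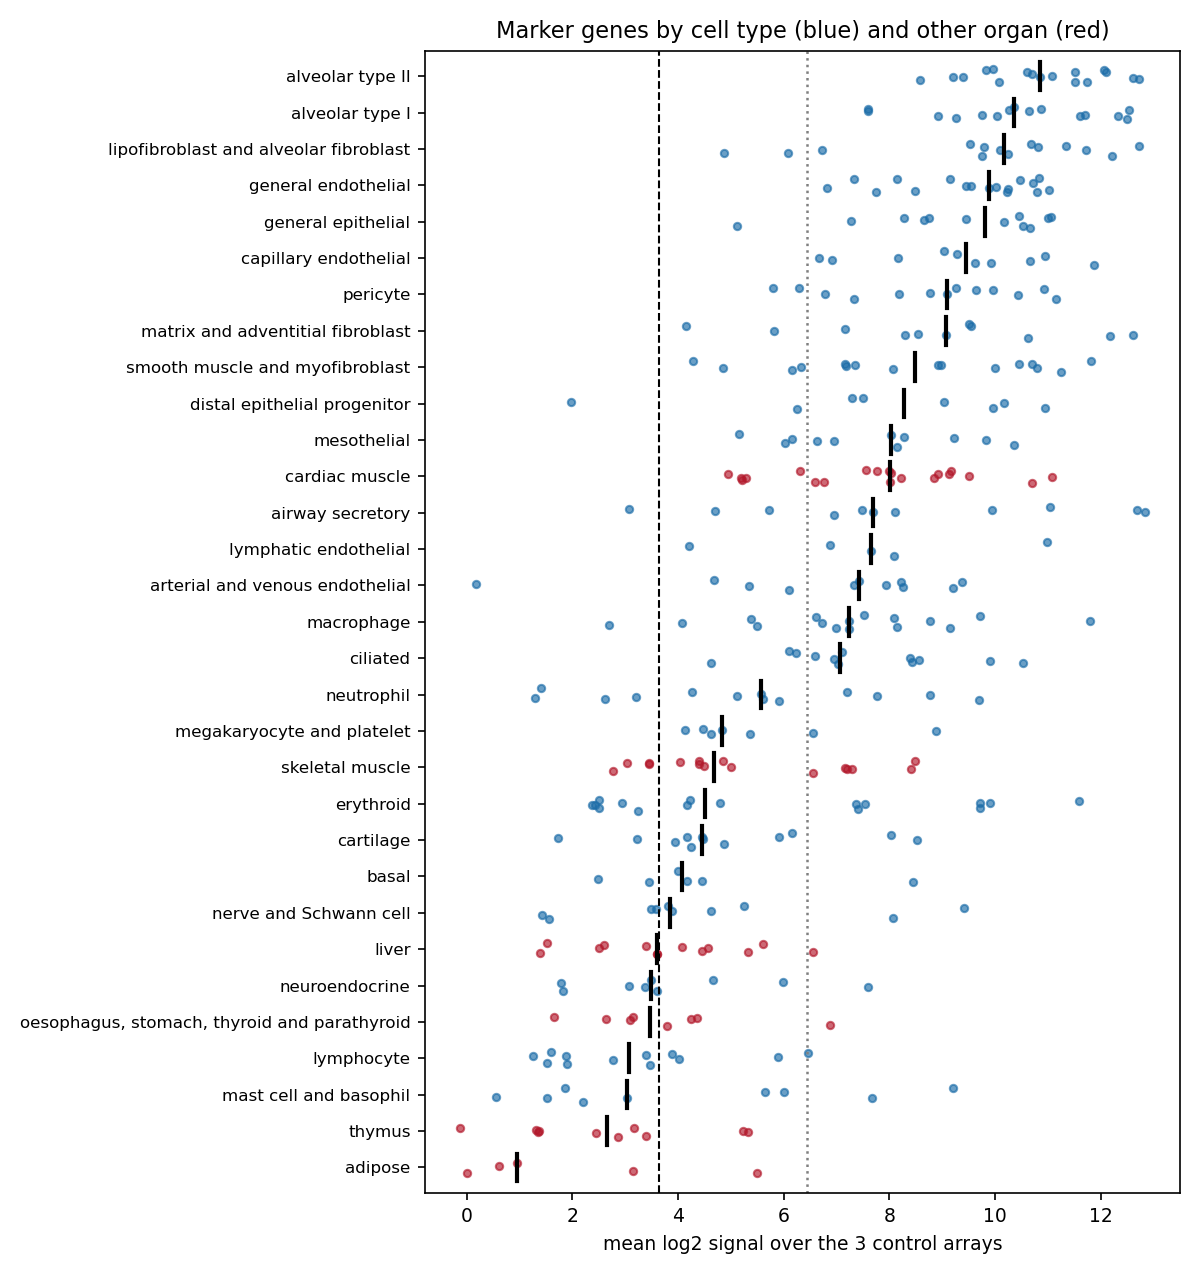
Mean log2 signal over the 3 control arrays for each marker gene (points; blue for cell types, red for other organs), with the list median as a black bar. The dashed line is the background level of 3.63 and the dotted line the median of all genes, 6.44; the alveolar type II list is at the top with a median of 10.85 and the adipose list at the bottom with 0.96.

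Alveolar type II markers had the highest median of the cell type and organ lists, 10.85, with all 17 measured members above background. With the probe sets of each gene averaged the median was 9.39, below the 9.61 of the alveolar type I list, so the order of these lists depends on that choice. Sftpc, which encodes surfactant protein C and is a common marker of these cells, read 12.23, 12.44 and 13.52 on replicates 1, 2 and 3. Sftpa1, the gene of surfactant protein A, read 11.48, 11.74 and 11.97, and Sftpb, that of surfactant protein B, read 11.31, 11.45 and 11.74. Sftpd, the gene of the collectin surfactant protein D, read 10.38, 10.71 and 11.45. All 4 surfactant protein genes were thus lowest on replicate 1 and highest on replicate 3.

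Genes of surfactant lipid and other members of the type II list were bright as well. Slc34a2, a phosphate transporter, averaged 12.10 ± 0.42, Lpcat1, an acyltransferase of phosphatidylcholine remodelling, 11.51 ± 0.21, and the desaturase gene Scd1 11.08 ± 0.13 (SD, n = 3 each). The lipid transporter gene Abca3 averaged 10.60 ± 0.09, Fasn, which encodes fatty acid synthase, 10.07 ± 0.18 and the lysozyme gene Lyz1 12.06 ± 0.22 (SD, n = 3 each). Proteases of surfactant protein processing were among the members, with Ctsh at 12.60 ± 0.34 and Napsa at 10.70 ± 0.35 (SD, n = 3 each). The dimmest member, the transcription factor gene Cebpa, still averaged 8.58 ± 0.08 (SD, n = 3).

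Alveolar type I markers had a median of 10.35 with brightest probe sets, and all 15 members were above background. Cav1, the caveolin gene that endothelium also expresses, averaged 12.54 ± 0.33, and Ager, the receptor gene best known from type I cells, averaged 12.49 ± 0.40 (SD, n = 3 each). Hopx (12.33 ± 0.41), the tight junction gene Cldn18 (11.70 ± 0.09) and Emp2 (11.60 ± 0.23) came next (SD, n = 3 each). The water channel gene Aqp5 was far dimmer, at 7.61, 7.40 and 7.79 on replicates 1 to 3. Rtkn2 read 7.23, 7.36 and 8.18 and had the widest range of the list, which stayed short of 2-fold. Clic5, at 10.35, 10.36 and 10.35, was among the 8 most even of the 1000 brightest genes.

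The general epithelial list had a median of 9.81. Its brightest members were the keratin genes Krt8 (11.06 ± 0.14) and Krt19 (10.65 ± 0.13) and the E-cadherin gene Cdh1 (11.01 ± 0.16; SD, n = 3 each). Nkx2-1, the lineage factor of lung epithelium, was the dimmest at 5.20, 5.19 and 4.94. Of 8 genes of distal progenitors, Id2 (10.94 ± 0.18), Foxp2 (10.16 ± 0.18) and Etv5 (9.96 ± 0.21) were bright (SD, n = 3 each), Sox9 read 6.17, 6.18 and 6.41, and Etv4 was not above background.

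Airway secretory markers combined some of the brightest genes of the array with dim and uneven ones. Scgb3a2 averaged 12.84 ± 0.44, Scgb1a1, the club cell secretoglobin gene, 12.67 ± 0.30, and the cytochrome P450 gene Cyp2f2 11.03 ± 0.35 (SD, n = 3 each). Scgb3a1, another secretoglobin gene of larger airways, read 8.10, 10.42 and 5.81, a 24.5-fold difference between replicates 2 and 3. The lectin gene Reg3g read 7.36, 9.44 and 6.28, and the mucin gene Muc5b 4.78, 6.06 and 3.25. These 3 genes shared 1 order, highest on replicate 2 and lowest on replicate 3, also after quantile normalization. Scgb1a1 and Scgb3a2 were highest on replicate 3 as deposited, but after quantile normalization Scgb1a1 read 12.77, 12.72 and 12.60 and Scgb3a2 12.83, 12.84 and 12.86. Bpifa1, a secreted protein gene of proximal airways, was not above background on average, at 0.55, 4.42 and 4.22.

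All 12 measured ciliated cell markers were above background, with a median of 7.06. The dynein light chain gene Dynlrb2 averaged 10.53 ± 0.11 and Tppp3 9.90 ± 0.12 (SD, n = 3 each). Foxj1, the transcription factor of motile cilia, read 6.41, 6.88 and 6.49, and the axonemal dynein gene Dnah5 was dimmest at 4.62 ± 0.40 (SD, n = 3). Replicate 2 was the highest array for 10 of the 12 and replicate 3 for 2. Of all genes at 7 to 8, 29.9% were highest on replicate 3, and the share highest on replicate 2 was not counted. Basal cell markers were low apart from Krt15 (8.44 ± 0.25, SD, n = 3): Trp63 and Krt14 were not above background, and Krt5 read 3.53, 4.25 and 4.23. Of 9 neuroendocrine markers 3 were above background, the bombesin-like peptide gene Grp (7.59 ± 0.11, SD, n = 3), Uchl1 and Syp.

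General endothelial markers were bright, and none varied over 2-fold. Such ranges were rare among bright genes of any kind, so this does not set the list apart. They occurred in 0.787% of the 6731 brighter genes above background, and in 5.13% of all genes above background. No capillary or pericyte marker varied over 2-fold either. All 17 general endothelial genes were above background, with a median of 9.88. Emcn, which encodes endomucin, averaged 11.02 ± 0.16, Calcrl 10.83 ± 0.15, Ramp2 10.80 ± 0.15, and the vascular cadherin gene Cdh5 10.47 ± 0.02 (SD, n = 3 each). The mean of the list was 9.40, 9.48 and 9.51 on replicates 1 to 3. The VEGF receptor genes Kdr and Flt1 averaged 10.02 ± 0.28 and 6.82 ± 0.39 (SD, n = 3 each), and Flt1 was the dimmest member.

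Capillary genes had a median of 9.45. The apelin receptor gene Aplnr, a marker of general capillary cells, read 11.71, 11.86 and 12.06, and Kitl and Ednrb, known from the alveolar capillary type called aerocytes, averaged 10.94 ± 0.11 and 10.66 ± 0.06 (SD, n = 3 each). Car4, a carbonic anhydrase of alveolar capillaries, was low at 6.82, 6.77 and 7.12. Among arterial and venous genes (median 7.42), Efnb2 averaged 9.37 ± 0.17 and Nr2f2 9.20 ± 0.11 (SD, n = 3 each), and the arterial connexin gene Gja5 was not above background. Of the 10 above background 2 varied over 2-fold, the Notch ligand gene Dll4 at 5.64, 5.88 and 6.76 and the noradrenaline transporter gene Slc6a2 at 5.27, 4.62 and 4.14. Of 5 lymphatic markers Lyve1 was brightest at 10.99 ± 0.08 and Prox1 dimmest at 4.21 ± 0.25 (SD, n = 3 each); Lyve1 is also expressed by macrophages.

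Lipofibroblast and alveolar fibroblast markers had a median of 10.16, led by Mfap4, a microfibril-associated glycoprotein gene, at 12.42, 12.78 and 12.97, and by Tcf21, a mesenchymal transcription factor gene, at 12.01, 12.31 and 12.29. Npnt, which encodes nephronectin, averaged 11.72 ± 0.22, and its integrin partner Itga8 10.81 ± 0.23 (SD, n = 3 each). The lipid droplet gene Plin2 averaged 10.69 ± 0.15 and the PDGF receptor gene Pdgfra 10.24 ± 0.27 (SD, n = 3 each). The growth factor gene Fgf10 was dimmest, at 5.03, 4.58 and 4.97. Inmt, a methyltransferase gene, read 5.53, 5.81 and 6.91 and was the only member that varied over 2-fold.

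Smooth muscle and myofibroblast genes had a median of 8.49, with Acta2 at 11.81 ± 0.16, the light chain kinase gene Mylk at 11.24 ± 0.08 and Hhip, a hedgehog-binding protein gene, at 10.45 ± 0.09 (SD, n = 3 each). Pericyte genes had a median of 9.08 and list means of 8.76, 8.75 and 8.70, the narrowest range of the cell type lists. Among them were the guanylate cyclase subunit genes Gucy1a1 (10.93 ± 0.07) and Gucy1b1 (10.43 ± 0.10) and Pdgfrb (9.63 ± 0.20; SD, n = 3 each). All 11 mesothelial markers were above background, from Krt7 (10.36 ± 0.09), which epithelium also expresses, and Msln (9.83 ± 0.25) to Wt1 (5.15 ± 0.26; SD, n = 3 each).

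Extracellular matrix genes were above background in all 32 cases, with a median of 10.97. Besides Mfap4, the brightest were the collagen genes Col3a1 (12.61 ± 0.36), Col4a1 (12.27 ± 0.16) and Col1a2 (12.18 ± 0.23), and Sparc (12.17 ± 0.37; SD, n = 3 each). Fn1, the fibronectin gene, averaged 12.16 ± 0.25, the elastin gene Eln 11.96 ± 0.15 and the cross-linking enzyme gene Lox 11.68 ± 0.19 (SD, n = 3 each). Fbln2 was dimmest at 5.99 ± 0.14 (SD, n = 3). Of the 32, 3 varied over 2-fold (9.38%, against 5.13% of all genes above background), and all 3 were lowest on replicate 3. Col1a1 read 10.38, 9.75 and 8.49, the proteoglycan gene Dcn 9.02, 9.79 and 8.41, and the related Lum 8.07, 7.69 and 5.74. Col1a2, whose chain joins that of Col1a1 in type I collagen, did not share this order, at 12.05, 12.03 and 12.44. Together with Mfap5 these 3 made 4 of 11 matrix and adventitial fibroblast genes that varied over 2-fold, in a list with a median of 9.07.

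Blood and immune markers gave a mixed picture. Macrophage markers had a median of 7.24 with 15 of 16 above background. Lyz2, a lysozyme gene that type II cells also express, averaged 11.79 ± 0.15, the protease gene Ctss 9.71 ± 0.16 and Csf1r, the receptor for macrophage colony-stimulating factor, 9.15 ± 0.17 (SD, n = 3 each). Itgam was not above background. Among neutrophil markers, S100a8 (9.68 ± 0.18) and S100a9 (8.76 ± 0.26) were on the bright side (SD, n = 3 each). The 4 of 13 not above background were Mpo, Prtn3, Ctsg and Elane, genes of granule proteins. Mmp9, a gelatinase gene of this list, read 7.71, 4.41 and 4.61. Of 12 lymphocyte markers, 4 were above background, the B cell genes Cd79b, Ighm and Ms4a1 and the granzyme gene Gzma, while the T cell receptor complex genes Cd3d, Cd3e and Cd3g were not.

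Erythroid genes included bright genes that other cells share, such as the carbonic anhydrase gene Car2 (11.59 ± 0.15) and the transferrin receptor gene Tfrc (9.90 ± 0.10), and Alas2, the erythroid enzyme of heme synthesis (9.71 ± 0.09; SD, n = 3 each). The embryonic globin gene Hbb-y read 6.78, 6.72 and 8.69, the embryonic globin gene Hba-x 4.42, 4.13 and 5.82, and the red cell anion exchanger gene Slc4a1 6.98, 7.14 and 7.98. Replicate 3 was the highest array for 11 of 16 erythroid genes, among them these 3. It was also highest for 43.4% of all genes at 4 to 5, the level of the list median of 4.51. Of the 16 genes, 6 were not above background, where noise is large. The embryonic globin gene Hbb-bh1 was not above background on average, at 2.04, 3.08 and 3.67. Hba-a1, an adult globin gene, was not above background in its single-symbol probe set. Probe sets annotated to several genes, as near-identical globins can be, were not named.

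Genes of growth and signalling were mostly above background in their brightest probe sets. Of 18 imprinted genes, a class known for control of fetal growth, 15 were above background, where 74% of all genes were. The list median was 10.41, or 7.61 with the probe sets of each gene averaged. Plagl1 averaged 12.43 ± 0.30, Mest 12.38 ± 0.29, Gnas 12.22 ± 0.21, the long non-coding RNA gene Meg3 12.22 ± 0.41 and Igf2 11.40 ± 0.10 (SD, n = 3 each). Zim1, Peg10 and Snrpn were not above background, and Nnat read 9.94, 10.12 and 8.79. Cell cycle genes were above background in all 22 cases (median 9.58), with Pcna at 11.38 ± 0.11, Mki67 at 10.67 ± 0.07, Top2a at 10.42 ± 0.06 and Tyms dimmest at 4.51 ± 0.27 (SD, n = 3 each).

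All 19 ligand and receptor genes of lung signalling were above background. Their median was 9.57, or 6.77 with the probe sets of each gene averaged. Among ligands, Shh averaged 11.03 ± 0.18, Igf1 10.27 ± 0.09, Wnt2 9.53 ± 0.02, Pdgfa 9.35 ± 0.17 and Vegfa 9.26 ± 0.06, while Bmp4 averaged 7.50 ± 0.23, Wnt7b 7.04 ± 0.12 and Fgf9 5.35 ± 0.20 (SD, n = 3 each). Among receptors, the TGF-beta receptor gene Tgfbr2 averaged 10.93 ± 0.09, the hedgehog receptor gene Ptch1 10.71 ± 0.08 and Fgfr2 10.31 ± 0.23 (SD, n = 3 each). The ligand gene Tgfb1 read 6.64, 6.78 and 5.36 and was the only member to vary over 2-fold.

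Genes of lung liquid transport and of glucocorticoid response had a median of 9.68 with all 15 above background. The chloride-loading cotransporter gene Slc12a2 (11.47 ± 0.27), the sodium pump subunit gene Atp1b1 (11.47 ± 0.25) and the water channel gene Aqp1 (11.19 ± 0.17) were brightest (SD, n = 3 each). Hsd11b1, which encodes the enzyme that regenerates active glucocorticoid, averaged 10.84 ± 0.32, and the glucocorticoid receptor gene Nr3c1 10.15 ± 0.09 (SD, n = 3 each). The sodium channel subunit genes read lower, Scnn1g at 8.67 ± 0.13, Scnn1a at 8.14 ± 0.14 and Scnn1b, dimmest of the list, at 6.72 ± 0.09 (SD, n = 3 each). Of the nuclear factor I genes, Nfib read 10.24, 10.32 and 10.17 in its brightest probe set, Nfia averaged 9.41 ± 0.19, Nfix 8.23 ± 0.06 and Nfic 7.23 ± 0.21 (SD, n = 3 each). A further Nfib probe set read 4.25, 2.01 and 1.63, so the level depends on the probe set.

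The 3 arrays agreed closely for genes above background and poorly for the others. Across the 13461 genes above background, which are not independent replicates, pairs of arrays correlated at a Pearson r of 0.972 to 0.983. Across the 4732 genes not above background r was 0.458 to 0.563. The median SD of a gene over the 3 arrays was 0.155 above background. By level it was smallest, 0.104, at signals of 10 to 11. It was larger at dimmer levels, with 0.174 at 6 to 7 and 0.451 at 3 to 4. It was also larger at brighter levels, with 0.156 at 11 to 12 and 0.318 at 12 and over. Among the 1000 brightest genes the smallest SD was that of Tceal8 at 0.0027, followed by Stt3a, Clic5, Mapre1, Pbrm1, Rev3l, Hdlbp and Sox4.

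At the top of the scale the arrays differed in a regular way. All 25 of the brightest genes read lowest on replicate 1 and highest on replicate 3, as did 95 of the 100 brightest. For the 124 genes at 12 and over, the median difference from replicate 1 was 0.28 on replicate 2 and 0.62 on replicate 3. At 9 to 10 these differences were 0.03 and -0.01. The bacterial and phage transcripts bioB, bioC, bioD and cre, which are added to the hybridization mix as controls, followed the same order in all 18 of their probe sets. They were higher on replicate 3 than on replicate 1 by 0.65 to 1.08. The 3 control probe sets for mouse 18S ribosomal RNA were higher on replicate 3 than on replicate 1 by 2.16 to 3.18, and the part of that difference in the other values was not tested. Quantile normalization, which forces the 3 arrays to share a distribution, lowered the median SD of the genes at 12 and over from 0.318 to 0.0771.

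**Figure D3:**
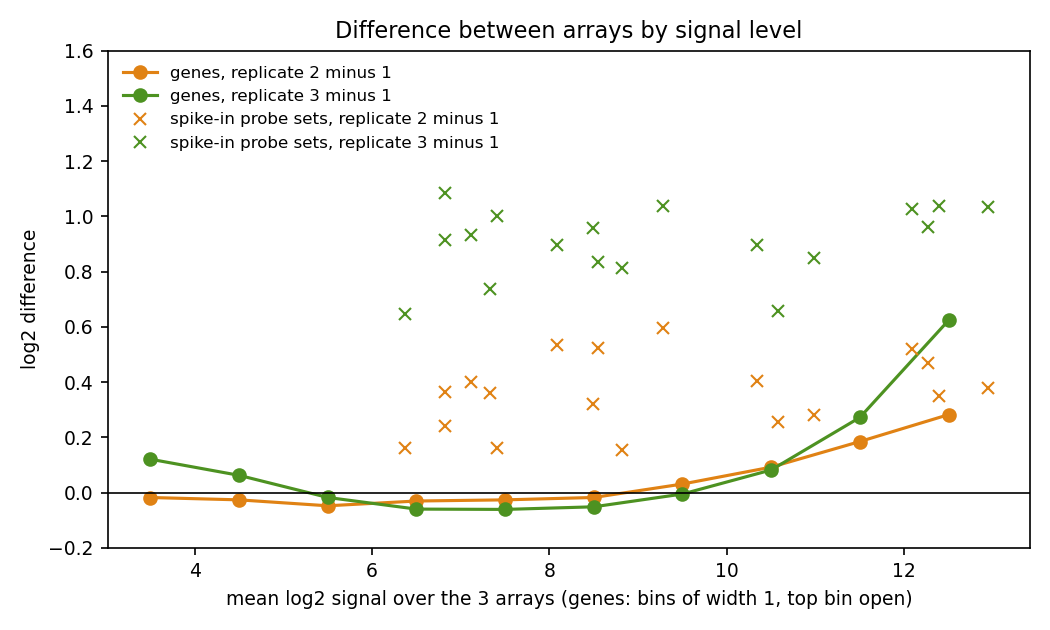
Log2 difference of replicate 2 (orange) and replicate 3 (green) from replicate 1 against mean log2 signal; lines join the medians of genes in bins of 1, crosses are single spike-in probe sets. Genes from 5 to 10 lie near 0, genes at 12 and over reach 0.62 on replicate 3, and the spike-in probe sets lie between 0.65 and 1.08 on replicate 3.

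The order of the surfactant genes across arrays has to be read beside this. The alveolar type II list averaged 10.65, 10.80 and 11.10 on replicates 1 to 3, and replicate 3 was highest for 14 of 17 genes. After quantile normalization the list means were 10.77, 10.78 and 10.99. Sftpc then read 12.55, 12.46 and 13.04, a range of 0.59 instead of 1.29, and Sftpd 10.43, 10.67 and 11.36. The range of the alveolar type I list fell from 0.21 to 0.04, and that of the 10 housekeeping genes from 0.41 to 0.0035. The part of the spike-in difference in these values was not tested.

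A 2-fold difference between the highest and the lowest array was found for 690 of the 13461 genes above background (5.13%). It was rarer among brighter genes, with 53 of the 6731 at or above the median (0.787%). Replicate 3 was most often the array that stood apart, low for 221 and high for 159 of the 690 genes. After quantile normalization it was low for 282 and high for 101 of 704 such genes. Of the cell type markers above background, 26 of 251 varied over 2-fold. The lists with the most such members were those of striated muscle, with 15 of 20 cardiac and 12 of 12 skeletal genes above background. A gene passes on its mean, so a gene high on a single array, such as Tnni2, can pass through that array alone. Its 2-fold range then follows from the filter, so the skeletal count is partly fixed in advance.

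**Figure D4:**
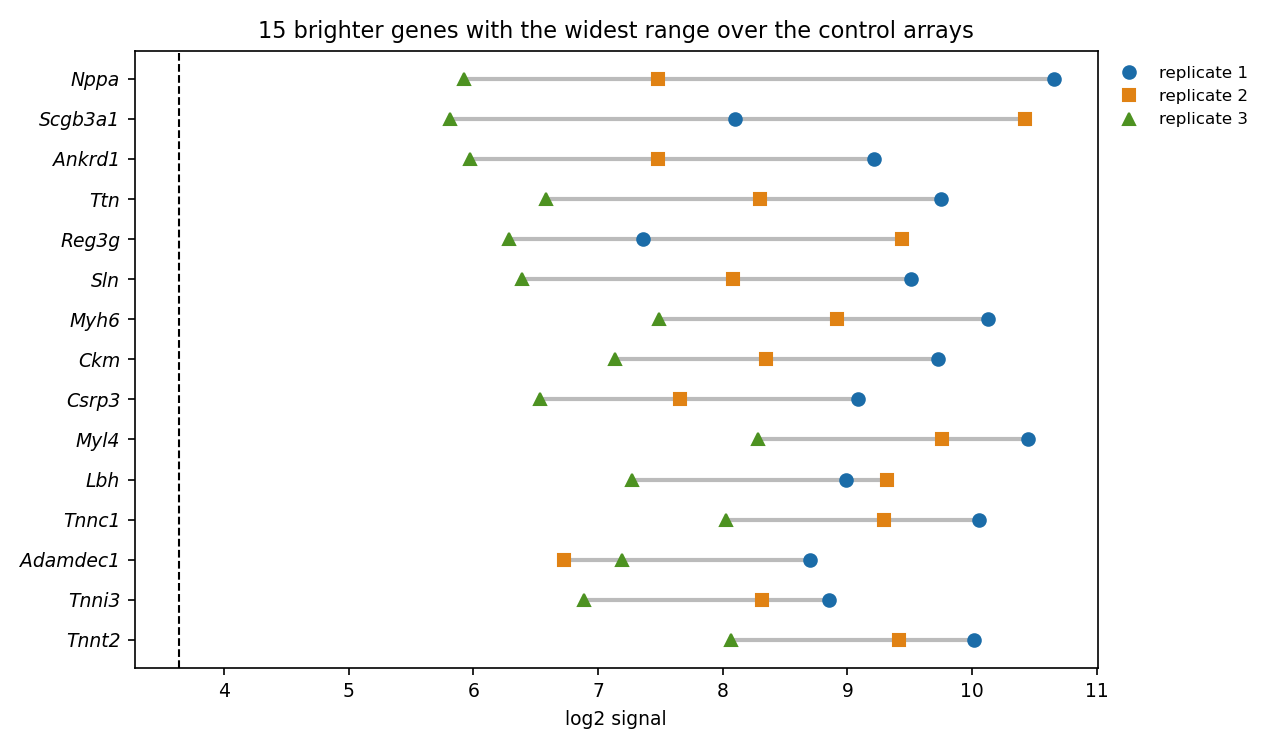
Log2 signal on each control array for the 15 genes with the widest range among the 6731 brighter genes. Genes with RIKEN, Gm, LOC and EST names were left out. Blue circles are replicate 1, orange squares replicate 2 and green triangles replicate 3, and the dashed line is the background level. Nppa spans 5.92 to 10.66, and 11 of the 15 genes belong to the cardiac or skeletal muscle lists.

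Cardiac muscle genes read highest on replicate 1 and lowest on replicate 3. Mouse pulmonary veins are known to carry a sleeve of cardiac muscle, and the heart lies beside the lungs at dissection, so a lung sample can hold both. The part of either in these values was not tested. The list mean was 8.67, 7.72 and 6.88, and 15 of 20 genes fell in that order across the arrays. Actc1, which encodes cardiac actin, read 11.68, 11.26 and 10.28, and Myl7, the atrial light chain gene, 11.43, 10.95 and 9.71. Nppa, which encodes the atrial natriuretic peptide, read 10.66, 7.48 and 5.92, a 26.6-fold difference. Among brighter genes outside RIKEN, Gm, LOC and EST names this range was the widest. Myh6 read 10.13, 8.92 and 7.49, Ttn 9.75, 8.30 and 6.58, and Sln, a regulator of the atrial calcium pump, 9.51, 8.08 and 6.39. The other cardiac genes among the 15 widest ranges were Ankrd1, Csrp3, Myl4, Tnnc1, Tnni3 and Tnnt2, all in the same order. The ventricular light chain gene Myl2 did not follow, at 5.99, 6.17 and 6.74, nor did Nkx2-5, the dimmest of the list, at 4.81, 4.70 and 5.32. Quantile normalization left the list range at 1.81, against 1.79 without it.

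Skeletal muscle genes stood apart on replicate 1. The list mean was 7.45, 4.69 and 3.79. The fast troponin gene Tnni2 read 8.21, 2.36 and 1.51, a difference of at least 23.9-fold over the background level. Acta1, the skeletal actin gene, read 9.95, 5.82 and 5.84, the light chain gene Mylpf 9.51, 6.41 and 5.94, Myl1 9.82, 6.55 and 5.11, and the embryonic myosin gene Myh3 7.79, 3.58 and 3.64. Tnni1 and Ckm, at 9.34, 8.46 and 7.64 and at 9.72, 8.35 and 7.14, fell more evenly. The muscle regulators Myog and Myod1, the acetylcholine receptor gene Chrna1 and, on average, the perinatal myosin gene Myh8 were not above background, although Myh8 read 7.72, 3.13 and -0.51.

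Muscle genes that vary together give a case in which promoter sequence can be set beside the values. The serum response factor is known to bind the CArG box, a motif of 10 bases that is its own reverse complement, so that a search reads both strands at once. In RefSeq promoters (GRCm38.p6), a CArG box lay within 250 bases before a start site in 3 of 19 cardiac genes of the list (15.8%) and 1 of 13 skeletal genes (7.69%). The share over all 27025 genes of the table was 1.62%. For smooth muscle and myofibroblast genes, of which none varied over 2-fold, the table held 12 of 16. Of these 1, Myl9, had a CArG box (8.33%), a share like that of the skeletal list. All of these muscle lists hold too few genes for a comparison of their shares. The 4 matches are printed 5′ to 3′ on the gene's strand, each as 60 bases with the CArG box in capitals, for Actc1 (chr2:114052888-114052947, minus strand), Myl7 (chr11:5898809-5898868, minus), Myl3 (chr9:110763568-110763627, plus) and Acta1 (chr8:123894814-123894873, minus).
Actc1: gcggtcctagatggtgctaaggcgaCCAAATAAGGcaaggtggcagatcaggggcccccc
Myl7: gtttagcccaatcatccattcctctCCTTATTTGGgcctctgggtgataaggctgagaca
Myl3: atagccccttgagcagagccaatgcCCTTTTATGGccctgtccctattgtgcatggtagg
Acta1: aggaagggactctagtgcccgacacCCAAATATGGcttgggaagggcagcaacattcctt
The box began 47 bases before the start in Actc1, 61 in Myl7, 85 in Myl3 and 73 in Acta1. Actc1, Myl7 and Acta1 were highest on replicate 1, and so was Myl3, at 5.71, 4.66 and 5.51. A match is a description of letters, not a measured binding site.

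Liver genes ran the other way, highest on replicate 2 for all 13 measured. The albumin gene Alb read 4.36, 8.69 and 6.64, and the alpha-fetoprotein gene Afp 2.13, 8.09 and 6.57, at least 22.0-fold over the background level. The list mean was 1.85, 5.56 and 3.93. Of the 13, 6 were above background on average, and on replicate 1 most members, among them Afp, Ttr, Apoh and the fibrinogen genes Fga, Fgb and Fgg, read below the background level. Cartilage genes averaged 5.53, 4.89 and 4.50, with Col11a1 at 7.29, 5.28 and 5.15 and the cartilage collagen gene Col2a1 at 6.06, 4.08 and 4.47. Without Matn1, a matrilin gene at 2.95, 2.75 and -0.53, the range of the cartilage list was 0.81 instead of 1.03.

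**Figure D5:**
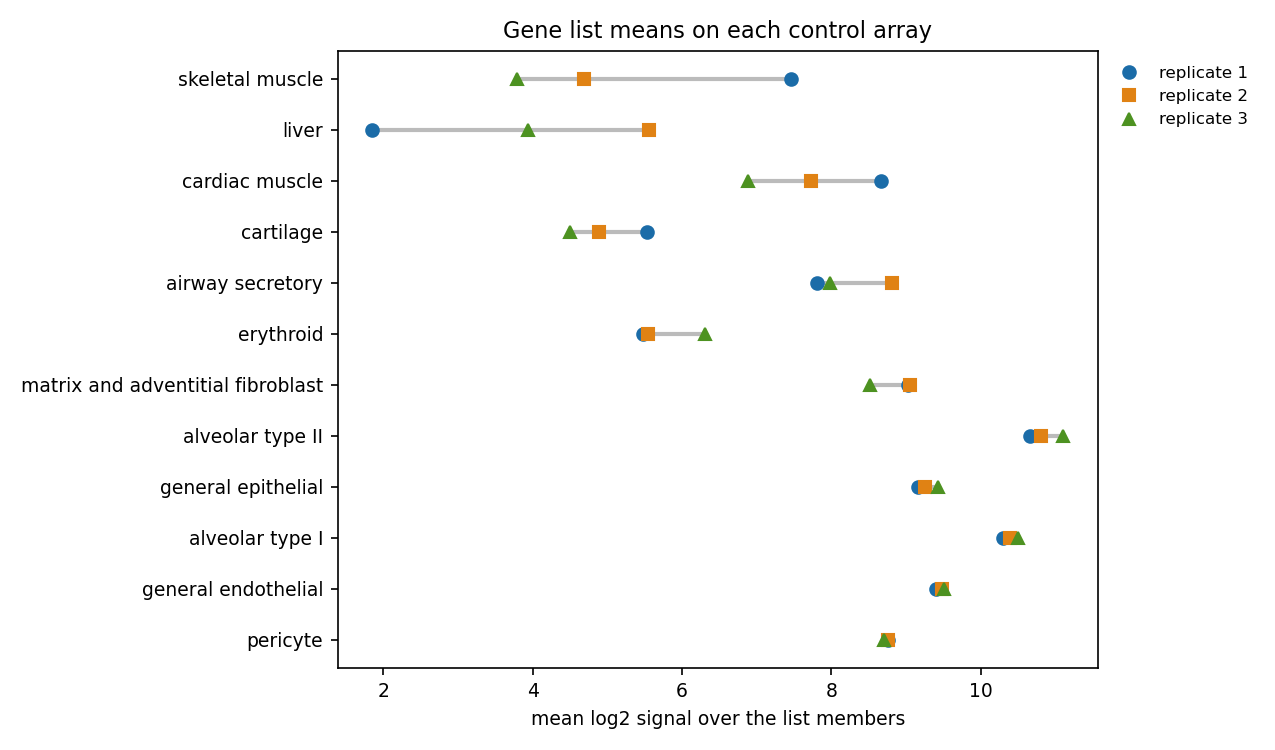
Mean log2 signal over the members of 12 gene lists on each control array (blue circle replicate 1, orange square replicate 2, green triangle replicate 3; grey bars join the lowest and highest array). Skeletal muscle spans 3.79 to 7.45 and liver 1.85 to 5.56, while the general endothelial list stays between 9.40 and 9.51.

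Sex chromosome genes separated replicate 1 from replicates 2 and 3. Xist, the RNA of the inactive X chromosome, read 11.83 on replicate 1 and 4.78 and 4.34 on the others. The Y-linked genes Eif2s3y (2.35, 9.64 and 9.30), Kdm5d (0.43, 8.31 and 8.08) and Uty (1.24, 7.86 and 7.57) had the opposite pattern. Replicate 1 thus read as from a female animal and replicates 2 and 3 as from males, which the labels do not state. Skeletal and cardiac muscle genes were highest and liver genes lowest on that same array, so the differences of replicate 1 from the others cannot be told apart from fetal sex. Replicates 2 and 3 shared the male pattern, and their list means still differed, at 7.72 and 6.88 for cardiac, 4.69 and 3.79 for skeletal and 5.56 and 3.93 for liver genes. The labels give no array date or litter.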

How the data were processed

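Per the labels' protocols, lung RNA came from TRIzol extraction with an RNeasy clean-up and was hybridized as biotinylated cRNA. MAS5 and affy are the tools listed, with no version, per the submitters' processing notes. The values deposited by the authors are log2 signals: their linear trimmed means (2% off either tail) lay between 150.04 and 150.05, with medians of 4.85 to 5.03 on the log2 scale. Other scaling steps are not given in the sources used here. Values were used as deposited, without an offset.

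Of 45101 probe sets, 64 controls were set aside; 34945 had 1 gene symbol, 932 several and 9160 none, and only the first were named. For 34741 of these the gene identifier matched RefSeq (GRCm38.p6), used for names and promoters. Of 548 entries in 41 gene lists, 515 were matched; the other 33 were not analysed here.

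With 1 group there was no test, only means, SDs (n = 3) and ranges. The naming rule took the 25 brightest genes, the 5 brightest, the dimmest and the widest-ranging member of each list, members not above background where at most 5, the 15 widest ranges among brighter genes, the 8 most even of the 1000 brightest, and the nuclear factor I, housekeeping and sex chromosome genes. RIKEN, Gm, LOC and EST names were left out of the 15 widest ranges. Not every gene the rule covers is printed. Any other gene named, such as Cxcl15, Vmn2r29, Lpcat1 or Kdr, was picked after its values were seen. Members and lists were chosen with earlier results of these data known. A difference to an array below background is given as at least the fold over the background level. The script was tested on simulated arrays. Python 3.11.15, pandas 2.3.3 and matplotlib 3.10.9 were used. The number of arrays limits the precision.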

Additional observations from a re-analysis of the deposited data

How the results depend on the processing

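No paired analysis was possible because a single group was described and no test was made. With a gene's probe sets averaged, the 25 brightest genes held 5.89% of the signal, against 3.60%, and 12 of the 25 were shared; the median SD was 0.177 and 1047 genes varied over 2-fold. Under this setting the medians of 31 of 41 lists moved, among them lung signalling from 9.57 to 6.77, imprinted genes from 10.41 to 7.61, lymphatic genes from 7.66 to 4.91 and nuclear factor I genes from 8.82 to 5.80, while 25 lists, against 26, lay above the median of all genes. Scaling to a common median gave a median SD of 0.186, and no filter one of 0.208. An offset of 64 on the linear scale gave a median SD of 0.0981, 73 genes that varied over 2-fold, 2 lists, instead of 5, whose means differed by more than 1 (the cardiac and skeletal muscle lists), and a lowest correlation of 0.988. With background at the 99th percentile of the receptor genes 409 genes varied over 2-fold, and with genes above background alone the lowest correlation was 0.972, against 0.955 over all genes. Without 1 array, the genes that varied over 2-fold numbered 371 without replicate 1, 380 without replicate 2 and 206 without replicate 3, and the median SD ran from 0.103 to 0.142; fewer arrays give a smaller range by construction. Leaving out the widest-ranging member of each list, an alternative chosen after seeing the data, gave 4 lists whose means differed by more than 1. Quantile normalization kept all 25 of the brightest genes. The count above background ran from 12471 to 13755 over its alternatives. Signals below 3.63 carry too much noise to order genes.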

Other observations

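Most lists of rarer cells and neighbouring organs had a smaller share of members above background than the 74% of all genes. Among nerve and Schwann cell genes, 6 of 10 were above background, with the receptor gene Erbb3, which epithelium also expresses, at 9.41 ± 0.15 and Stmn2 at 8.07 ± 0.12 (SD, n = 3 each). The Schwann cell factor gene Sox10 read 4.64, 5.35 and 5.73, and Dbh, the enzyme gene of noradrenaline synthesis, 5.06, 5.37 and 3.44. Of 9 mast cell and basophil genes, 4 were above background, Kit (9.20 ± 0.06, SD, n = 3) and Gata2, which other lung cells express, and the mast cell proteases Cpa3 (6.07, 6.43 and 5.50) and Cma1 (5.48, 6.18 and 5.28). All 7 megakaryocyte and platelet genes were above background, led by the platelet factor gene Pf4 at 8.88 ± 0.14 (SD, n = 3). Of the thymus list 2 of 10 were above background, Cd8a and Ccl25, of the oesophagus, stomach, thyroid and parathyroid list 4 of 8, led by Tff1 (7.03, 6.47 and 7.15), and of the adipose list 1 of 5, Pparg.

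Genes that respond within minutes to handling were detected at moderate levels. Of 19 immediate early genes 17 were above background, with a median of 8.02; Btg2 averaged 9.74 ± 0.09, Fos read 7.62, 7.31 and 8.03, and Fosb and Egr2 were not above background. Of the 7 heat shock genes, the constitutive Hspa8 averaged 12.50 ± 0.18 and the inducible Hspa1a 4.94 ± 0.12 (SD, n = 3 each). Housekeeping genes had a median of 11.95, from Tpt1 (13.02 ± 0.52) to Tbp (8.08 ± 0.07; SD, n = 3 each).

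Outside the lists, 2 of the 15 genes with the widest range were Lbh, a transcription cofactor gene, at 8.99, 9.32 and 7.27, and Adamdec1, a metalloprotease gene, at 8.70, 6.73 and 7.19.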
